A study of Mus musculus with 25 samples.

Results

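The genes described here are 10 genes of megakaryocytes and platelets, followed through mouse liver from mid-gestation to adult life: Pf4, Ppbp, Itga2b, Gp9, Gp5, Gp1bb, Clec1b, Gp6, Treml1 and Tubb1. They were taken by symbol, and each was represented by the probe set that carried its symbol alone and had the highest mean over the stages, which made them 10 of 18194 measured genes. RNA came from whole livers of random-bred C57/B6 mice and was hybridised to Affymetrix arrays. The labels name no transgene, deletion or treatment in any group, and the groups differ in them by age and by the number of livers pooled. Livers were pooled by stage: 12 livers at embryonic day 11.5 (E11.5), 9 each at E12.5 and E13.5, 6 each at E14.5 and E15.5, and 3 at each of E16.5, E17.5 and E18.5. The day of birth (Day0), days 3, 7, 14 and 21 after it (Day3 to Day21) and adult mice of 18 weeks also had pools of 3 livers. Each of the 14 stages was 1 pool, and no animal was measured on its own. Technical repeats, 2 arrays of a pool, existed for 11 stages, while E18.5, Day7 and Day14 had 1 array, giving 25 arrays. Whether the livers were flushed of blood is not given in the sources used here.

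Megakaryocytes are large polyploid blood cells that shed platelets, and the fetal liver is a main site of their formation before the bone marrow takes over. Platelets store chemokines in their alpha granules and carry adhesion receptors, among them the fibrinogen receptor formed by integrins alphaIIb and beta3 and the GPIb-IX-V complex that binds von Willebrand factor. Transcription factors of the GATA and ETS families, working with NF-E2 and others, are known to drive their genes.

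The start-site regions of 5 of the genes are shown because the results turn on how these genes moved together or apart: the neighbouring chemokine genes Pf4 and Ppbp, the receptor subunits Gp5 and Gp1bb, and Clec1b. Each holds 250 bases before and 50 bases after the start of the gene, 5′ to 3′ on the strand of the gene, from RefSeq in build GRCm38.p6. All 10 genes matched an entry. Capitals mark letters of a GATA motif (AGATAA or TGATAA) or an ETS motif (AGGAAG or CGGAAG) on either strand.
Pf4 (chr5:90772185-90772484, plus strand): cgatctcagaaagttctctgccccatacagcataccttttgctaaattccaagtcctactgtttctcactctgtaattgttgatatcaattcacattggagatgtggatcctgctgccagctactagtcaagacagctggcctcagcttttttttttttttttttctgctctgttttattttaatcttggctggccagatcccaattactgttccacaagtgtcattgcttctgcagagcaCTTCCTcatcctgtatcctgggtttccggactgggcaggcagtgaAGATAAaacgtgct
Ppbp (chr5:90768268-90768567, plus strand): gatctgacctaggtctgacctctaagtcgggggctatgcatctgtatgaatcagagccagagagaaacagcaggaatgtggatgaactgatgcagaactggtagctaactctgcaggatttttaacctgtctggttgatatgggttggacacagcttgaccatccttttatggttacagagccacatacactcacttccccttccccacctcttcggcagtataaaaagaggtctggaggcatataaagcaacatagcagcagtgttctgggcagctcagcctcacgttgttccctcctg
Gp5 (chr16:30310732-30311031, minus strand): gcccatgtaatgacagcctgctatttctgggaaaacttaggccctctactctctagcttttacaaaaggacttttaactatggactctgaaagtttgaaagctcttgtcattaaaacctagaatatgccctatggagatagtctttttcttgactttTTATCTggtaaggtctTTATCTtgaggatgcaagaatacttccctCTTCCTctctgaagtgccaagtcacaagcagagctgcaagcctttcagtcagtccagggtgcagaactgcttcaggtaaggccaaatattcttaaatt
Gp1bb (chr16:18622354-18622653, minus strand): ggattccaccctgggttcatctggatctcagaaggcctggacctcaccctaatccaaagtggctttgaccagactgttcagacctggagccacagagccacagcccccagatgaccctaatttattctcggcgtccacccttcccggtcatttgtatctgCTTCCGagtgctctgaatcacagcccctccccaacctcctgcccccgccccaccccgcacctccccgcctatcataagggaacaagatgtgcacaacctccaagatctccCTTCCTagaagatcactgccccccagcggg
Clec1b (chr6:129397047-129397346, plus strand): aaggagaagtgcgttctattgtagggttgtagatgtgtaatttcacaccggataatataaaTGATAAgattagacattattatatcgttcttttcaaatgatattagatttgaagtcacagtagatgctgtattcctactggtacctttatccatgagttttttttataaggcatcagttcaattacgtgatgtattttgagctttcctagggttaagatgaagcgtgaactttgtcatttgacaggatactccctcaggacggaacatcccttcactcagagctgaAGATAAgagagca
The GATA letters lay in the windows of 4 of the 10 genes, against 18.6% of 32851 promoters of the same length. ETS letters were in 6 of the 10, against 46.5% of all promoters, 2 genes (Pf4 and Gp5) held both motifs against 7.70%, and 8 held either against 57.4%. In Pf4 the ETS letters began 9 bases before the start and the GATA letters at base 37 after it. Gp5 had GATA letters at 93 and 77 bases before its start and ETS letters at 48 bases before it. Gp1bb had ETS letters at 90 bases before the start and at base 21 after it, and no GATA letters in this window. Clec1b had GATA letters at 189 bases before the start and at base 38 after it. Ppbp, whose start lies 3917 bases from that of Pf4 on chromosome 5, held neither motif. These matches describe letters and were not tested as binding sites.

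All levels below are log2 of the deposited intensity, and a difference of 1 is a 2-fold difference. Arrays had median intensities of 42.6 to 46.3, and repeats of a stage correlated at r = 0.986 to 0.996 across genes with a repeat standard deviation (SD) of 0.111 to 0.216. A list of 9 measured hepatocyte genes had mean levels from 8.97 at E12.5 to 12.64 at Day14, so hepatocyte genes were well above the array medians at every stage. The E18.5 pool stood apart: the mean of 8 skeletal muscle genes was 7.03 there, against 5.27 to 5.68 in the other 13 pools. Values that rest on E18.5 are therefore also given without it where that changed a call. In whole tissue, fewer cells of a type and less RNA per cell cannot be told apart.

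Pf4 and Ppbp encode the alpha-granule chemokines platelet factor 4 and pro-platelet basic protein. Both were high through fetal life and the first week and then much lower. Pf4 stood at 11.29, 11.13, 10.54 and 10.55 at E11.5, E12.5, E13.5 and E14.5, and at 10.31 and 10.08 at E15.5 and E16.5. It was 10.29, 10.88, 10.86 and 9.98 at E17.5, E18.5, Day0 and Day3. From Day7 on it was 9.76, 7.92, 6.91 and 6.55. Its highest pool was the earliest and its lowest the adult one, a 26.6-fold range from an intensity of 2497 to 93.9, and the E18.5 and Day0 pools lay above all pools from E13.5 to E17.5. Ppbp, by contrast, had its lowest fetal pool at E11.5. Its early levels were 9.52, 9.84, 9.75 and 9.60, followed by 10.31 and 10.08 at E15.5 and E16.5. Around birth it was 10.46, 10.91, 10.65 and 10.16. It was still 9.71 at Day7 and then 4.59, 4.80 and 4.75 at Day14, Day21 and in adults. The 79.4-fold range of Ppbp was the widest of the 10 genes and came from a single break, since the lowest array up to Day7 read 9.43 and the highest from Day14 on 4.94. For Pf4 the same limits were 9.73 and 7.92, so arrays before and after Day7 did not overlap for either gene.

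**Figure D1:**
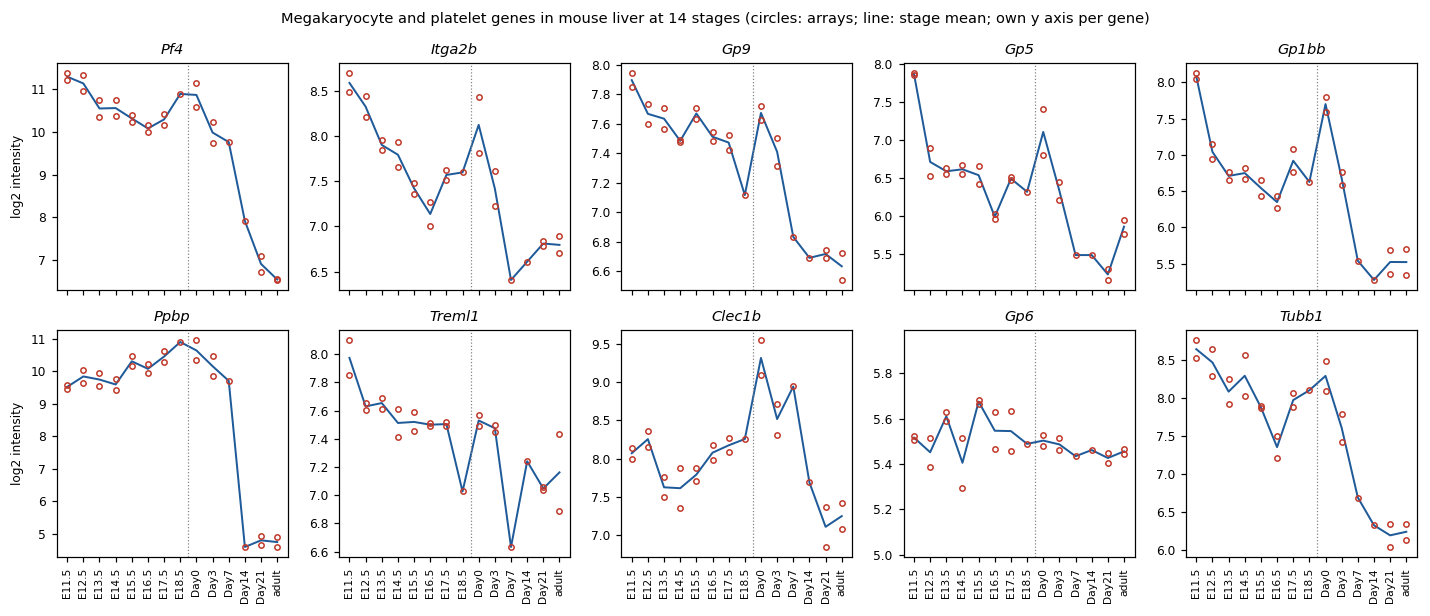
Log2 intensity (y axis, own scale per gene) of the 10 genes at 14 stages (x axis), with circles for arrays, a line through stage means and a dotted line between E18.5 and Day0. Most genes have a high first pool and a second maximum at Day0, while Ppbp drops from 9.71 at Day7 to 4.59 at Day14 and Gp6 stays between 5.41 and 5.67.

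Itga2b encodes integrin alphaIIb, the chain that pairs with beta3 in the fibrinogen receptor and that also marks early blood progenitors. Its levels were 8.58, 8.32, 7.90 and 7.79 from E11.5 to E14.5, then 7.42 and 7.14. It was 7.57 at E17.5, 7.60 at E18.5, 8.12 at Day0 and 7.42 at Day3, and 6.41, 6.61, 6.81 and 6.80 from Day7 to adults. The profile was a descent to E16.5, a second maximum at Day0 that reached only E12.5 to E13.5 levels, and a low plateau from Day7.

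Gp9, Gp1bb and Gp5 encode subunits of the GPIb-IX-V receptor, through which platelets catch von Willebrand factor at sites of injury. Gp1bb stood at 8.08 at E11.5 and at 7.04, 6.71 and 6.75 in the next 3 pools, then at 6.54 and 6.35. It was 6.92, 6.63, 7.70 and 6.68 from E17.5 to Day3, with Day0 second only to E11.5, and 5.54, 5.28, 5.52 and 5.52 thereafter. Gp5 followed a similar course, from 7.87 at E11.5 through 6.71, 6.59, 6.62, 6.54 and 5.99 at E12.5 to E16.5. Around birth it read 6.49, 6.32, 7.11 and 6.34, and later 5.49, 5.49, 5.24 and 5.86. For both genes E11.5 and Day0 were the pair of highest pools, and the E11.5 pool stood well above the rest of the early window. Gp9 had a narrower range, 2.40-fold, at 7.90, 7.67, 7.64 and 7.49 early, 7.67 and 7.51 at E15.5 and E16.5, 7.47, 7.12, 7.67 and 7.41 around birth, and 6.83, 6.69, 6.72 and 6.63 late. Its E18.5 pool was the lowest before Day7. Gp1bb had a second probe set of its own that moved little, from 5.98 to 6.32, so its values depend on the set chosen. Gp1ba, the remaining chain, was not analysed here.

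Clec1b encodes CLEC-2, the podoplanin receptor, and Gp6 the collagen receptor GPVI; both signal through Syk. Clec1b was the gene with its highest pool at Day0, while Ppbp had its own at E18.5, also in the window around birth. The single E18.5 array of Ppbp (10.91) lay between its 2 Day0 arrays (10.95 and 10.34). Its E18.5 and Day0 pools differed by less than its repeat SD of 0.272, so they could not be ranked. Clec1b read 8.07, 8.25, 7.63 and 7.61 early and 7.79 and 8.08 at E15.5 and E16.5. It was then 8.17, 8.26, 9.31 and 8.52 from E17.5 to Day3, and 8.94, 7.69, 7.11 and 7.25 from Day7 on. Its Day0 arrays read 9.54 and 9.08, above every array of the other stages, and its Day7 pool, at 8.94, was second. Gp6 lay between 5.41 at E14.5 and 5.67 at E15.5, a 1.21-fold range, and all 13 gaps between neighbours in its order were within its repeat SD of 0.077. This probe set was below 6 in every pool, so an order of stages could not be read for Gp6. Treml1 encodes an alpha-granule receptor known as TLT-1. It stood at 7.97 at E11.5, at 7.63, 7.65 and 7.51 in the next 3 pools and at 7.52 and 7.50 at E15.5 and E16.5. It was 7.50, 7.03, 7.53 and 7.48 around birth and 6.63, 7.24, 7.05 and 7.16 later. Most of its pools were close: 10 of 13 gaps were within its repeat SD of 0.141, and the pools furthest below their neighbours, E18.5 and Day7, each had 1 array.

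Tubb1 encodes beta1-tubulin, which forms the marginal band of platelets. It was 8.64, 8.46, 8.08 and 8.29 early, 7.87 and 7.35 at E15.5 and E16.5, and 7.97, 8.10, 8.29 and 7.60 from E17.5 to Day3. From Day7 on it was 6.69, 6.32, 6.19 and 6.24. Every pool up to Day3 lay above every later pool, with the widest gap in its order, 0.66, between E16.5 and Day7.

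The comparison of the early fetal and the birth maximum asks at which of these 2 times each gene was higher. For 7 genes (Pf4, Itga2b, Gp9, Gp5, Gp1bb, Treml1 and Tubb1) the highest of the 14 pools was E11.5, and 5 of these had their lowest fetal pool at E16.5. In all 7 the Day0 pool lay above E16.5 and above Day3, and in 6 it lay above E18.5, with Pf4 the exception at 10.86 against 10.88. That gap was within the repeat SD of Pf4, 0.243, and its Day0 arrays read 11.15 and 10.57. From E16.5 to Day0 the difference was 1.35 for Gp1bb, 1.11 for Gp5, 0.98 for Itga2b, 0.94 for Tubb1, 0.78 for Pf4, 0.16 for Gp9 and 0.03 for Treml1. Since these 7 were picked for their maximum at E11.5, Day0 had to be lower, and the gap ran from 0.22 for Gp9 to 0.76 for Gp5. For Ppbp and Clec1b Day0 exceeded E11.5 by 1.12 and 1.24. In 5 genes (Clec1b, Gp1bb, Gp5, Gp9 and Itga2b) both Day0 arrays were above every array of E18.5 and Day3, against 10.7% of all genes. With E17.5 in place of E18.5, Pf4 and Tubb1 joined them, 7 of 10 against 10% of all genes (1819 of 18194). These comparisons of single pools carry technical error only.

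Windows of stages were then compared, with pools as replicates: early (E11.5 to E14.5), birth (E17.5 to Day3) and late (Day7 to adult), 4 pools each. Called genes are those with a Benjamini-Hochberg adjusted p under 0.05, corrected across the 18194 genes, whose difference also reached 1 log2 unit. The spread within a window includes development from stage to stage, and the 3 contrasts share pools. Between the birth and the early window no member was called in limma, whether higher (4.15% of all genes) or lower (4.53%), and 1 of 10 had an unadjusted p under 0.05. The median difference of the 10 genes was -0.28, against 0.01 over all genes. Ppbp had the largest positive value, 0.86 ± 0.90 (SE, 4 against 4 pools, adjusted p = 0.544), with a 95% interval from -1.09 to 2.82. Its own pools were close within these windows (SD 0.15 early and 0.31 around birth), and the error, shared by all windows, took in the late pools (SD 2.50). Without Day7 the same 0.86 had an adjusted p of 0.00163, and with narrow windows one of 0.0237. Without stages of 1 array the value was 0.74 (adjusted p = 0.00486). None of these reached the 2-fold limit. Clec1b followed with 0.67 ± 0.37 (adjusted p = 0.237), and the largest negative value was that of Itga2b at -0.47 ± 0.19 (adjusted p = 0.108), which had an adjusted p of 0.0369 at -0.62 without Day0. In the fit of all pools the intervals still allowed changes of over 2-fold for Pf4 (-1.58 to 0.83), Clec1b (-0.14 to 1.48), Ppbp and, at its lower end, Gp5. The early pools lay wholly below the birth pools for Ppbp alone, 1 of 10 genes against 11.9% of all genes, and 0 of 10 had birth pools wholly below the early ones, against 16.0%. When arrays were set to equal housekeeping levels, Clec1b was called higher at birth (1.03, adjusted p = 0.0190), and Gp9, Gp1bb and Treml1, none of them called, changed from negative to positive values. That scaling moved the median of all genes by 0.35 in this contrast and the share of higher among called genes from 47.8% to 81.0%.

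After the birth window 6 of the 10 genes fell. Late pools were lower than birth pools for 6 of the 10 genes, where 3.29% of all genes were called lower, and 0 of 10 were higher, where 2.37% were. The median difference was -1.03, against 0.03 over all genes. Ppbp fell by 4.58 ± 0.90 (SE, adjusted p = 0.00690), a 23.9-fold difference, and without the Day7 array by 5.83, 56.9-fold. The differences were -2.72 ± 0.55 for Pf4 (adjusted p = 0.00861; -3.38 without Day7), -1.63 ± 0.18 for Tubb1 (adjusted p = 0.000228) and -1.52 ± 0.30 for Gp1bb (adjusted p = 0.00679). Gp5, at -1.04 ± 0.29 (adjusted p = 0.0365), and Itga2b, at -1.02 ± 0.19 (adjusted p = 0.00586), fell by about 2-fold. Gp9 had an adjusted p of 0.00292 at a difference of -0.70 ± 0.12, short of 1 unit. Clec1b (-0.82 ± 0.37, adjusted p = 0.213), Treml1 (-0.36 ± 0.15, adjusted p = 0.174) and Gp6 (-0.06 ± 0.06, adjusted p = 0.597) were not called. Late pools lay wholly below birth pools in 8 of 10 genes, all but Treml1 and Clec1b, against 7.03% of all genes. For Gp6, 1 of the 8, the gap was smaller than its repeat SD. The smaller falls were close to the threshold: Itga2b lost its call without Day0 (-0.87) or Day7 (-0.94), and Gp5 without E17.5, Day0, Day7, Day14 or Day21 (-1.07, -0.86, -1.03, -1.03 and -0.95). Both also lost it at equal housekeeping levels (-0.90 and -0.92). That left 4 of the 10 genes called lower, where 525 of all 18194 genes were. Narrow windows (-0.97 and -1.06) and leaving out stages of 1 array (-0.90 and -1.09) removed both calls too. Itga2b also lost its call after quantile normalization (-0.95). Clec1b gained a call without Day7 (-1.22, adjusted p = 0.0131), with narrow windows (-1.35, adjusted p = 0.0126) and without stages of 1 array (-1.49, adjusted p = 0.0179). Pf4 (-2.35, adjusted p = 0.0830) and Ppbp (-4.35, adjusted p = 0.0605) lost their calls when E18.5 and Day0 were left out together. With the mean of its 2 probe sets Gp1bb stood at -0.71 and was not called.

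**Figure D2:**
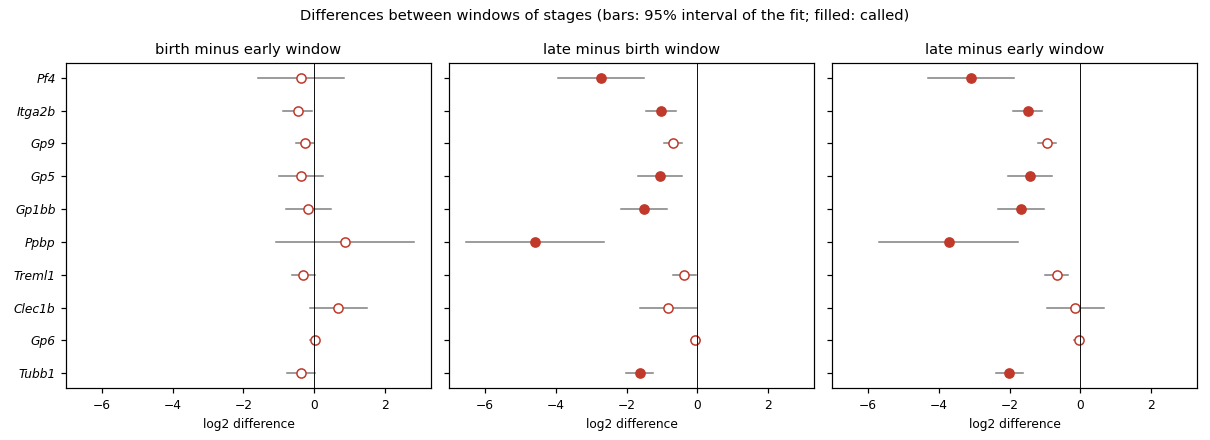
Differences in log2 intensity (x axis) between windows of 4 pools for each gene (y axis), with 95% intervals of the fit and filled points for called genes. No gene is called between birth and early windows; 6 are lower in the late window in each of the other comparisons, with Ppbp at -4.58 against birth and -3.72 against early.

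Against the early window the same direction held: 6 of 10 genes were lower late (11.0% of all genes) and 0 were higher (6.89%), with a median of -1.46 against 0.04 over all genes. The called values were -3.72 ± 0.90 for Ppbp (adjusted p = 0.00574), -3.09 ± 0.55 for Pf4 (adjusted p = 0.000834), -2.01 ± 0.18 for Tubb1 (adjusted p = 4.62e-06) and -1.68 ± 0.30 for Gp1bb (adjusted p = 0.000744). Itga2b stood at -1.49 ± 0.19 (adjusted p = 7.82e-05) and Gp5 at -1.43 ± 0.29 (adjusted p = 0.00177). Gp9 (-0.95 ± 0.12, adjusted p = 5.32e-05) and Treml1 (-0.67 ± 0.15, adjusted p = 0.00399) passed the adjusted p but not the fold. With narrow windows (-1.05) or without E14.5 (-1.01) Gp9 was called, while Treml1 stood at -0.20 (adjusted p = 0.402) at equal housekeeping levels. Clec1b differed by -0.14 ± 0.37 (adjusted p = 0.775), with an interval from -0.95 to 0.67, and its Day7 pool was higher than any early pool. Late pools lay wholly below early pools in 7 of 10 genes, against 19.9% of all genes. Ppbp was outside this count because its Day7 pool, at 9.71, overlapped the early ones. Setting housekeeping levels equal moved the median of all genes by 0.48 here and the share of higher calls from 38.4% to 69.1%, and Gp5 then stood at -0.95 and was not called. Between the late and birth windows the same scaling moved that median by 0.12 and that share from 41.9% to 53.6%. With the mean of its 2 probe sets Gp1bb stood at -0.80 and was not called. Leaving out the single array of Day7 gave -4.97 for Ppbp and -3.75 for Pf4.

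For the fetal course, a line was fitted through the 8 pools from E11.5 to E18.5, and its change over the whole span was tested. Ppbp rose by 1.20 ± 0.23 over the 7 days (SE, adjusted p = 0.00729, 2.30-fold), the only gene of the 10 called higher, where 4.40% of all genes were. Itga2b fell by 1.11 ± 0.28 (adjusted p = 0.0216), the only one called lower, where 12.0% of all genes were, and Pf4 stood at -0.72 ± 0.36 (adjusted p = 0.157). Gp9 (-0.55 ± 0.14, adjusted p = 0.0196) and Treml1 (-0.64 ± 0.15, adjusted p = 0.0160) passed the adjusted p but not the fold, and were positive (0.17 and 0.07) at equal housekeeping levels. Without E18.5 their adjusted p values were 0.0662 and 0.0539. Gp5 stood at -1.15 ± 0.38 (adjusted p = 0.0522) and Gp1bb at -1.01 ± 0.41 (adjusted p = 0.0973). Both called slopes lost their call when single pools were left out: Ppbp stood at 0.96 (adjusted p = 0.0322) without E18.5, and Itga2b was no longer called without E11.5 (-0.87), E12.5 (-1.03) or E16.5 (-0.99). Without E18.5, the pool with muscle genes, Pf4 (-1.33, adjusted p = 0.00967) and Tubb1 (-1.11, adjusted p = 0.0412) were called lower. The share of higher among all called genes was 26.9%, 41.7% after quantile normalization and 87.5% at equal housekeeping levels, which moved the median of all genes by 0.72. Itga2b was called under neither, at -0.69 and -0.39.

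Neighbouring stages were compared on the spread of repeat arrays, which leaves out differences between animals. The members made 11 calls over 13 steps. From E11.5 to E12.5 Gp5 fell by 1.15 ± 0.16 (SE, adjusted p = 0.000209) and Gp1bb by 1.04 ± 0.15 (adjusted p = 0.000264), 2 of 10 genes where 2.76% of all genes were called. No member was called at the next 6 steps, at which 1.04%, 0.0440%, 2.45%, 0.236%, 0.747% and 4.12% of all genes were called in stage order; at those steps 4, 1, 2, 2, 4 and 3 of 10 had an unadjusted p under 0.05 in limma. At birth, from E18.5 to Day0, Gp1bb rose by 1.07 ± 0.19 (adjusted p = 0.000709) and Clec1b by 1.06 ± 0.26 (adjusted p = 0.00869), against 5.88% of all genes called. At that step 4 of 8 skeletal muscle genes were called lower, and their part was not tested. Against E17.5 the differences at Day0 were 1.14 ± 0.22 for Clec1b (adjusted p = 0.00198), which was called, and 0.78 ± 0.15 for Gp1bb (adjusted p = 0.00239), which was not. From E18.5 to Day0, Gp9 (0.56 ± 0.11, adjusted p = 0.00253), Gp5 (0.79 ± 0.20, adjusted p = 0.00944) and Treml1 (0.50 ± 0.17, adjusted p = 0.0367) passed the adjusted p but not the fold. Against E17.5 Gp5 passed it at 0.61 (adjusted p = 0.0194), while Gp9 (0.20, adjusted p = 0.216) and Treml1 (0.03, adjusted p = 0.952) did not. Between Day0 and Day3 Gp1bb fell by 1.02 ± 0.15 (adjusted p = 0.000289), 1 of 10 against 2.91%, and from Day3 to Day7 it fell by a further 1.14 ± 0.19 (adjusted p = 0.000480). Itga2b fell by 1.01 ± 0.22 at that step (adjusted p = 0.00350), which made 2 of 10 genes against 6.16%. The largest break came from Day7 to Day14, when Ppbp fell by 5.12 ± 0.34 (adjusted p = 3.44e-07, 34.7-fold), Pf4 by 1.84 ± 0.31 (adjusted p = 0.00145) and Clec1b by 1.25 ± 0.31 (adjusted p = 0.0145), 3 of 10 against 5.73%. Pf4 fell by a further 1.003 ± 0.267 to Day21 (adjusted p = 0.0209), 1 of 10 against 3.56%, a call lost with arrays centred on their median (-0.94) and with the replicate block (-0.85), and no gene was called from Day21 to adults, where 1.81% of all genes were and 1 of 10 had an unadjusted p under 0.05. Day7 and Day14 had 1 array each, and E18.5 likewise. After quantile normalization 5 of the 11 calls were left: those of Pf4 and Ppbp from Day7 on and of Gp1bb from Day0 on. At birth Gp1bb and Clec1b then stood at 0.91 and 0.93, with adjusted p values of 0.000725 and 0.000733, below the 2-fold limit. At equal housekeeping levels they stood at 0.94 and 0.93 and were not called either, nor were the first step of Gp5 and Gp1bb (-0.81 and -0.70), the step of Gp1bb from Day0 to Day3 (-0.83) and that of Clec1b from Day7 to Day14 (-0.90). The same scaling added calls of lower levels from Day3 to Day7 for Gp5 (-1.03), Treml1 (-1.02) and Tubb1 (-1.10). No share of all genes is given for that step under this scaling.

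**Figure D3:**
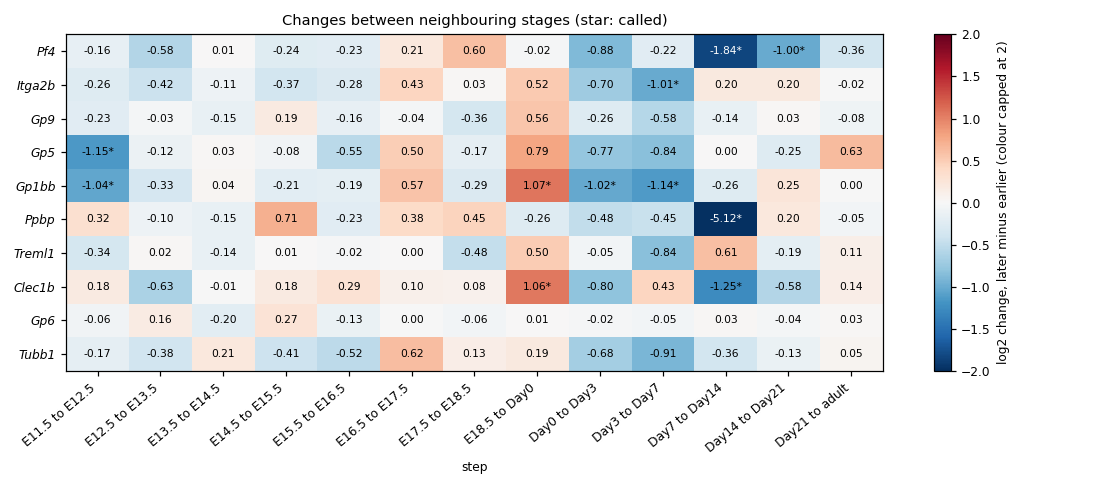
Change in log2 intensity between neighbouring stages (columns, later minus earlier) for each gene (rows), with blue for lower, red for higher and a star for called changes. Stars mark Gp5 and Gp1bb at the first step, Gp1bb and Clec1b at birth, and Pf4, Ppbp and Clec1b from Day7 to Day14, where Ppbp changed by -5.12.

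The profiles of the genes were alike to different degrees. Pearson correlations of stage levels over the 14 pools ran from -0.04 to 0.96 in the 45 pairs, with a median of 0.71, and over the 8 fetal pools from -0.84 to 0.96 with a median of 0.27. Gp5 and Gp1bb were the closest pair, at 0.96 over all pools and 0.96 over the fetal ones. Pf4 and Ppbp reached 0.93 over all pools but -0.29 over the fetal pools, so their likeness came with the drop after Day7. Clec1b and Treml1 were the least alike, at -0.04. Points of these correlations share arrays and the course of development, and they describe these pools. Of all other genes, those most like the mean of the 10 standardised profiles were Thbs1 (0.98), the alpha-granule adhesion protein thrombospondin 1, Cenpt (0.96), a centromere protein, Slc2a3 (0.96), the glucose transporter GLUT3, Myb (0.96), a transcription factor of blood progenitors, and Itgb3 (0.95), the integrin partner of Itga2b. All 5 had their highest pool at E11.5.

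Other genes of the lineage were taken from 7 lists (adhesion receptors, granule proteins, agonist receptors and signalling, eicosanoid and cGMP enzymes, cytoskeleton, transcription factors, and the thrombopoietin axis), of whose 91 genes 84 were measured. Gp1ba and Thpo were not analysed here. Between the birth and early windows 7 of the 84 were higher (8.33%, against 4.15% of all genes) and 2 lower (2.38%, against 4.53%). Late pools were lower than birth pools in 17 (20.2%, against 3.29%) and higher in 2 (2.38%, against 2.37%). Over the fetal course 9 rose (10.7%, against 4.40%) and 13 fell (15.5%, against 12.0%), so the shares of falls in fetal life and of late rises were near those of all genes. Their median differences were -0.05 from early to birth and -0.32 from birth to late, against 0.01 and 0.03 over all genes.

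Itgb3 followed Itga2b: it stood at 8.34 at E11.5, 6.39 at E16.5, 7.74 at Day0 and 5.49 in adults, fell by 1.36 ± 0.38 over the fetal course (SE, adjusted p = 0.0309) and had a late minus birth difference of -1.46 ± 0.29 (adjusted p = 0.00747). Vwf, the ligand of the GPIb-IX-V receptor, which endothelium also makes, had its maximum at Day0, at 8.07 against 6.29 at E18.5 and 6.32 at Day3. Its window differences did not pass the test (0.52 ± 0.42 from early to birth, adjusted p = 0.428; -1.29 ± 0.42 from birth to late, adjusted p = 0.0762). F13a1, the coagulation factor XIII A chain, also had its highest pool at Day0 (8.64), and its late minus birth difference was -2.77 ± 0.28 (adjusted p = 0.000131). Of the granule and membrane genes, Srgn (serglycin, 1.16 ± 0.36, adjusted p = 0.0380), Cd9 (a tetraspanin, 2.08 ± 0.50, adjusted p = 0.0107), Fcer1g (the chain that signals for GPVI, 1.58 ± 0.33, adjusted p = 0.00511) and Alox5ap (2.18 ± 0.40, adjusted p = 0.00264) were higher at birth than early, and all are also expressed by other white blood cells. F5 (2.92 ± 0.32, adjusted p = 9.11e-05), Asgr1 (3.88 ± 0.55, adjusted p = 0.000592) and Asgr2 (1.34 ± 0.29, adjusted p = 0.00711), which were higher too, are known as products of hepatocytes: coagulation factor V and the asialoglycoprotein receptor that clears aged platelets. No agonist receptor or cytoskeletal gene was called between these windows (0 of 15 and 0 of 13 in limma), P2ry12 standing at 0.43 ± 0.09 (adjusted p = 0.00511) and Myh9 at 0.53 ± 0.30 (adjusted p = 0.257).

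The transcription factors did not share 1 course. Gata1, needed by megakaryocytes and red cells alike, stood at 10.73, 11.03, 10.61 and 10.81 in the early pools and at 9.83, 9.07, 8.97 and 9.15 around birth, a difference of -1.54 ± 0.25 (SE, adjusted p = 0.00134). Its Day0 pool lay below E18.5, which had 1 array, and below Day3. Both gaps were smaller than the repeat SD over all genes at Day0, 0.210, so these 3 pools of Gata1 could not be ranked. For Itga2b, Gp9, Gp5, Gp1bb and Clec1b arrays were compared instead of pools, and both Day0 arrays lay above the arrays of E18.5 and Day3. Mef2c was the other factor lower at birth (-1.67 ± 0.29, adjusted p = 0.00180). Nfe2, the haematopoietic chain of NF-E2, rose over the fetal course by 1.17 ± 0.32 (adjusted p = 0.0278), did not differ detectably between birth and early windows (-0.01 ± 0.46, adjusted p = 0.994) and fell by 3.96 ± 0.46 to the late window (adjusted p = 0.000339). Fli1, an ETS factor, read 8.03 at E11.5, 6.34 at E18.5, 8.06 at Day0 and 4.77 in adults, with a late minus birth difference of -1.97 ± 0.49 (adjusted p = 0.0234). Gata2 differed by -0.26 ± 0.13 from early to birth (adjusted p = 0.209) and by 0.00 ± 0.13 from birth to late (adjusted p = 0.999). In all, 6 of 18 factors were lower late than at birth, where 3.29% of all genes were, and none was higher, where 2.37% were.

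Other blood cells of the liver changed over the same stages, and their part in the members' values was not tested. The mean of 15 erythroid genes was 9.03 to 10.45 in the early pools, 9.64 to 10.35 around birth and 6.09 to 7.49 late, with its maximum of 10.83 at E15.5. Of these, 15 of 15 were lower late than at birth, against 3.29% of all genes. The 13 granulocyte genes averaged 7.09 to 7.30 early, 9.63 to 10.47 around birth and 6.41 to 9.14 late. Of these, 12 were higher at birth than early (4.15% of all genes), and 12 were lower late than at birth (3.29%). Ppbp likewise had early pools below birth pools and its lowest levels from Day14 on. The 16 macrophage genes averaged 6.27 to 6.50 early, 7.83 to 8.58 around birth and 7.70 to 9.16 late, highest at Day7, where Clec1b also had its second highest pool. The mean of 15 mitosis genes was highest at E15.5, at 9.33, and 13 of 15 were lower late than at birth. Stem and progenitor genes, 16 in number, averaged 6.92 at E11.5 and 6.40 at Day0, so that list was highest at E11.5, as the 10 members were (8.34), but lay at Day0 below every early pool (6.66 to 6.92), whereas the members' mean at Day0 was 8.27. Endothelial genes averaged 6.54 to 6.88 early, 6.91 to 7.41 around birth and 6.87 to 7.58 late. Mast cell and basophil genes lay between 5.86 and 6.04 throughout, with 0 of 8 called between any of these windows. No list was at 0 on these arrays, which give a background level to every probe set.

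**Figure D4:**
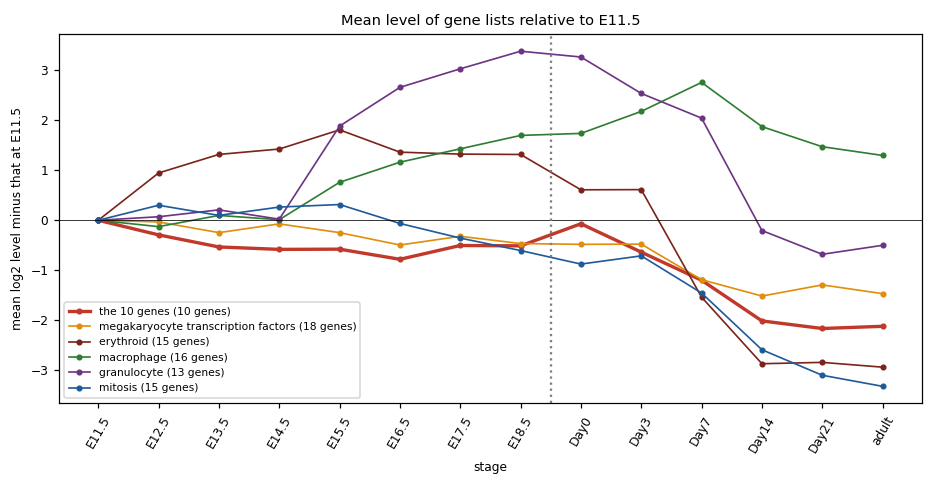
Mean log2 level of gene lists (y axis, relative to E11.5) at 14 stages (x axis); the red line is the mean of the 10 genes and the dotted line lies between E18.5 and Day0. The red line stands for mean levels of 8.34 at E11.5, 7.56 at E16.5 and 8.27 at Day0, a mean in which 7 genes lay below E11.5 at Day0 and Ppbp and Clec1b above, while the erythroid, granulocyte and macrophage lines have maxima at E15.5, E18.5 and Day7.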

How the data were processed

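Total RNA of pooled livers was labelled with biotin and hybridised, per the labels' protocols. The authors deposited a table of 45101 probe sets on 25 arrays, whose values are linear intensities from 12.6 to 25175. RMA, which corrects background, normalizes and summarises probes, was used per the submitters' processing notes; its version and the build behind the values are not given in the sources used, and array means from 140.5 to 210.4 leave unknown whether a normalization step was applied. Tests had been planned on log2 values, so log2 was taken without a pseudocount. Probe sets were named from the platform annotation: 34958 carried 1 symbol, 932 several and 9211 none.

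The repeats of a stage were averaged, and windows and the fetal line were fitted over pools, neighbouring steps over arrays, with limma 3.58.1 in R 4.3.3 (lmFit, eBayes) and Benjamini-Hochberg adjustment over 18194 genes. Stages with 1 array were assumed to vary like the others in the steps. The fits were tested on simulated data. The members and gene lists were chosen with earlier results of these data known, and the skeletal muscle list was added after seeing the arrays. Named genes were all members, up to 4 called and 2 other genes of each lineage list, 8 genes in any case and the 5 most alike profiles; not every gene this rule admits is printed. Alternatives covered scaling, probe sets, dim genes, variance models, repeats, windows, thresholds and each pool left out.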

Additional observations from a re-analysis of the deposited data

Results flagged for a closer look

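Within the windows of 4 pools, 30 sets of values of the 10 genes were examined for a pool far from the other 3 (Dixon's criterion), and 4 were found. Chance alone gives about 1 in 20 for independent values in no order. The pools of a window are successive stages and the profiles of the genes were correlated, so 4 of 30 cannot be judged by that rate. Gp5 stood at 7.87 at E11.5, against 6.59 to 6.71 in the other early pools. Gp1bb stood at 5.28 at Day14, against 5.52 to 5.54 in the other late pools. Ppbp stood at 9.71 at Day7, against 4.59 to 4.80 in the later pools. Treml1 stood at 7.03 at E18.5, against 7.48 to 7.53 in the other pools around birth. The pools at Day14, Day7 and E18.5 had 1 array each.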

How the results depend on the processing

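The 14 called differences of the genes were recomputed under up to 28 alternatives. Of 378 values 349 kept their call and 29 lost it, and of all 1046 values of the 10 genes 22 gained a call and none reversed a called direction. Tubb1 kept its 2 calls throughout. Between birth and early windows 1 gene was called higher at equal housekeeping levels (1239 of all 18194 genes). Between late and birth windows 2 genes were lower without E18.5 and Day0, an alternative chosen after seeing the data. No count over all genes is given for that alternative in this contrast, so the 2 cannot be judged against it. For the fetal course the number of members called lower was 0 after quantile normalization (1329 of all 18194 genes) and 0 at equal housekeeping levels (602 of all genes). It was 2 with the mean of all probe sets (1446 of all genes), without dim genes, with a variance trend and with the first repeat array only. It was 3 without stages of 1 array, with no minimum fold (3451 of all genes) and without E18.5 and Day0. For the other fetal-course settings here no count over all genes is given. Members called higher there numbered 0 without stages of 1 array and without E18.5 and Day0. With single pools left out, members called higher ranged from 0 (without E18.5) to 1, and members called lower from 0 (without E11.5) to 3 (without E18.5). Calls at neighbouring steps numbered 5 after quantile normalization, and 1 member was called on Day0 against E17.5 in place of E18.5, also chosen after seeing the data. No count over all genes is given for either. With a replicate block, 2 members were called lower over the fetal course, Gp5 being added at -1.18; at single steps Pf4 from Day14 to Day21 (-0.85) lost and Tubb1 from Day3 to Day7 (-1.06) gained a call, and the other step calls were kept. The differences between repeats correlated over genes at -0.57 to 0.73 (median 0.40) in 55 pairs of stages, over 0.1 in 38. At every stage with 2 arrays the median gene was higher on the first repeat, by 0.004 at Day21 to 0.068 at Day0. The offset was larger for several of the 10 genes, all of which were higher on the first repeat at Day0. Their 2 Day0 arrays read 11.15 and 10.57 for Pf4, 8.43 and 7.81 for Itga2b and 10.95 and 10.34 for Ppbp. For Gp6 they read 5.53 and 5.48. Whether arrays of the same repeat number were processed together is not given. E18.5, Day7 and Day14 had a first repeat only, so their values were set against means of both repeats at other stages.

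Over all genes, equal housekeeping levels gave 1239 higher and 291 lower calls between birth and early windows and 606 and 525 between late and birth. They gave 2377 and 1064 between late and early, and 4200 and 602 over the fetal course. With no minimum fold the counts were 1335 and 2532 between birth and early, 818 and 1050 between late and birth, 3568 and 4012 between late and early, and 1941 and 3451 over the course. Lower calls between birth and early numbered 501 with the mean of all probe sets and 466 without E18.5 and Day0. Over the course they were 1329 after quantile normalization and 1446 with the mean of all probe sets. Narrow windows gave 282 higher calls between late and birth. The cause of these shifts was not tested. Without a spread between animals, precision is limited by 14 pools, and dim probe sets such as that of Gp6 carry little signal over background.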
